A study of Mus musculus with 6 samples.

Results

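The largest cluster of odorant receptor genes in the mouse lies on chromosome 2, and its receptors belong to class II, the class that expanded in land vertebrates. The cluster was taken as the rows of the deposited table that name a receptor (the symbol Olfr followed by a number) and lie between 85 and 90.5 Mb on chromosome 2 of mm10 (GRCm38). This gave 221 of the 44519 rows of the table and 221 of its 1103 odorant receptor rows, the others being 125 class I rows on chromosome 7 and 757 class II rows elsewhere. The first member starts at 85330897 and the last, Olfr1272, ends at 90282573. Of the members, 144 lie on the minus strand and 74 on the plus strand, and 3 had no match in the annotation used. In 5 rows the receptor is merged with another gene (Olfr1116 with Olfr1117-ps1, Gm13741 with Olfr1134, Gm13757 with Olfr1182, Gm13762 with Olfr1213, Olfr1249 with Olfr1251), and the value of each gene in such a row is unknown.

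Odorant receptors are G protein-coupled receptors of olfactory sensory neurons. A neuron precursor chooses a single receptor allele out of the whole repertoire, most of which lies in silent heterochromatin, and a set of intergenic enhancers bound by Lhx2, Ldb1 and Ebf factors gathers around the chosen gene. The receptor protein reaches the cilia with the help of the transporting proteins Rtp1 and Rtp2, and it signals through the G protein subunit Golf, adenylyl cyclase 3 and a cyclic nucleotide-gated channel. Horizontal basal cells (HBCs), the reserve stem cells at the base of the olfactory epithelium, are not known as a site of receptor choice.

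The measurements are bulk RNA sequencing of GFP-positive cells sorted from mouse olfactory neuroepithelium and labelled as horizontal basal stem cells. In the TNF group, 3 libraries (replicates 1, 3 and 4) came from mice with the Krt17-EGFP reporter and the Cyp2g1-rtTA and TRE-TNF transgenes, labelled with 6 weeks of doxycycline. In the control group, 3 libraries (replicates 1, 2 and 4) came from Krt17-EGFP mice labelled as without doxycycline. All mice thus carried the reporter, and the Cyp2g1 promoter, that of a sustentacular cell gene, drove the transactivator that switches on tumor necrosis factor (TNF). Genotype, transgenes and doxycycline differ together between the groups and cannot be told apart. The labels name individual RNA samples and not whether each came from a separate animal, so p-values measure the spread between these samples, which may be technical. No age is given in the labels.

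Levels are in FPKM, fragments scaled to transcript length and library size, and the read depth is unknown. The value of a single fragment, read from the lowest FPKM steps of genes, ran from 0.871 to 1.072 times that of control replicate 1. FPKM summed to 688190 to 838417 per library. Markers of neurons were present beside those of HBCs in all libraries. Summed FPKM of 16 markers of mature olfactory neurons was 1247, 49.6 and 40.1 in TNF replicates 1, 3 and 4, against 4173, 3957 and 7847 in control replicates 1, 2 and 4. All 16 were detected in every library. Summed FPKM of the 11 rows of HBC markers was 8126, 5635 and 5398 in TNF libraries, against 2771, 3502 and 829 in control libraries. Of the 11 rows 5 were called higher and 0 lower in the TNF group, where 1635 of all 15037 rows tested were called higher. TNF replicate 1 thus stood apart from the other TNF libraries in its neuronal RNA, and control replicate 4 from the other controls in both lists. Marker sums of other cell types also varied between libraries, with overlap between the groups. Over all rows tested, 27.2% were called lower. Sustentacular and gland marker FPKM summed to 6283, 2051 and 2177 in TNF libraries, against 5828, 6134 and 3239 in control libraries, with 4 of 11 tested rows lower. Macrophage markers summed to 593, 196 and 271 in TNF libraries, against 335, 375 and 1719 in control libraries, with 6 of 10 lower. Fibroblast and endothelial markers summed to 42.1, 1103 and 1600 in TNF libraries, against 532, 455 and 144 in control libraries, with 0 of 8 called. Globose basal cell markers, those of the neuron progenitors, summed to 339, 247 and 202 in TNF libraries, against 347, 319 and 549.6 in control libraries, with 2 higher and 6 lower of 12. TNF replicate 1 was again apart from the other TNF libraries in sustentacular, macrophage and fibroblast markers, and control replicate 4 from the other controls in all of these lists. The part of these markers in the results on receptors was not tested. In bulk samples, fewer cells of a type and less RNA per cell cannot be told apart.

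Promoters of 4 members are shown here because their RefSeq start lies ahead of a leader exon, more than 100 bases from the coding start, and within 100 bases of the start of the deposited locus. Both conditions held for 10 windows, and these 4 were picked from them for their members' values, which were known. The set comprises Olfr1110 and Olfr1093, which every control library held at 4.07 FPKM or more, and Olfr1199 and Olfr1205, which come up again for TNF replicate 1. Each runs from 250 bases before to 50 bases after the RefSeq start (GRCm38.p6), 5′ to 3′ on the gene's strand. Capitals mark matches on either strand to the homeodomain core TAATNA, the kind of motif that Lhx2 and Emx2 recognise, and to the Ebf core CCCNNGGG, and the matches of the pair of motifs cannot overlap. Olfr1110 is chr2:87140184-87140483 (minus strand), Olfr1093 is chr2:86782295-86782594 (plus strand), Olfr1199 is chr2:88760436-88760735 (minus strand) and Olfr1205 is chr2:88829507-88829806 (plus strand).
Olfr1110: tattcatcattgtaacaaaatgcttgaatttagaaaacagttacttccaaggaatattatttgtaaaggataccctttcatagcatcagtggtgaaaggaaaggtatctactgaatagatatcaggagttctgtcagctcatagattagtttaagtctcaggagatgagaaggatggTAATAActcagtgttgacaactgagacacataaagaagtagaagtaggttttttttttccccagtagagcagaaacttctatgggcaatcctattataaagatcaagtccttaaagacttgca
Olfr1093: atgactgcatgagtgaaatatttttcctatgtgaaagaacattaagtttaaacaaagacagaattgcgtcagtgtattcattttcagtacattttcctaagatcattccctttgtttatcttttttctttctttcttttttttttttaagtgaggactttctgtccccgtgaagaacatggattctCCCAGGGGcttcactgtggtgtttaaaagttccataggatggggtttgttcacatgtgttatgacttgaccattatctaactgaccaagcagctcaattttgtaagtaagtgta
Olfr1199: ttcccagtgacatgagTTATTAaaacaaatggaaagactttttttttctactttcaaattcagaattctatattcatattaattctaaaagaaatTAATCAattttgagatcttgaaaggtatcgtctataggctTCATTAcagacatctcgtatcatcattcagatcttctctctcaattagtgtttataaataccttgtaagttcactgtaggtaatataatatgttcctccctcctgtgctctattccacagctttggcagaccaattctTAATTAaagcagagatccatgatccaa
Olfr1205: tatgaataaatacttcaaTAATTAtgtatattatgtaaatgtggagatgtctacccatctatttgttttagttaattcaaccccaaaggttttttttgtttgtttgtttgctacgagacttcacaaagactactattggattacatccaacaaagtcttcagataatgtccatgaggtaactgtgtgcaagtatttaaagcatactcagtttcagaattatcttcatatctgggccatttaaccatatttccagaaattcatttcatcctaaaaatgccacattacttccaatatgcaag
The Olfr1110 and Olfr1205 windows each hold 1 homeodomain core, the Olfr1199 window holds 4, and the Olfr1093 window holds 1 Ebf core and 0 homeodomain cores.

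RefSeq held a window for 183 of the 221 receptor symbols, 184 windows in all. The homeodomain core occurred in 147 of the 184 (79.9%), in 62.5% of 760 windows of other odorant receptors and in 26.5% of all 32851 promoters of the table. The Ebf core occurred in 4 of the 184 (2.2%), in 3.3% of the windows of other receptors and in 13.7% of all promoters. Base composition moves with these shares, as the median AT content was 68.0% in the member windows and 47.3% in all windows, and its part in them was not tested. Most member windows begin at the coding exon, since the RefSeq start lay more than 100 bases from the coding start in 17 windows only. In those 17 windows the homeodomain core occurred in 14 (82.4%) and the Ebf core in 3 (17.6%). In the 84 such windows of other odorant receptors the shares were 64.3% and 15.5%. A match is a run of letters, not a shown binding site.

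The receptors themselves resemble their neighbours. Coding sequences were found for 218 members, with a median length of 936 bases (range 903 to 1038), and the median identity over all pairs of members was 58.3%. The receptor nearest in sequence lay within the cluster for 217 of the 218, at 62.0% to 98.7% identity with a median of 87.0%. At least 95% identity was reached by 47 members and at least 98% by 10, which form the pairs Olfr1049 and Olfr1051, Olfr1057 and Olfr1062, Olfr1080 and Olfr1082, Olfr1028 and Olfr1029, and Olfr1034 and Olfr1036. The sources used here do not say how reads shared by such copies were counted, so the values of those members are uncertain.

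The cluster was expressed at low levels in control libraries and stood at 9.44% of its control mean or less in each TNF library. Members summed to 62.7, 1.74 and 2.1 FPKM in TNF replicates 1, 3 and 4, against 631, 424 and 937 FPKM in control replicates 1, 2 and 4. The groups did not overlap, and TNF replicate 1 lay far above the other 2 TNF libraries. As a percentage of the control mean the TNF sums were 9.44%, 0.261% and 0.316%. The log2 ratio of the group means was −4.90 with all libraries and −8.44 without TNF replicate 1. As a share of all FPKM of a library, the members took 0.00747%, 0.000252% and 0.000304% in TNF libraries, against 0.0796%, 0.0550% and 0.112% in control libraries.

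**Figure D1:**
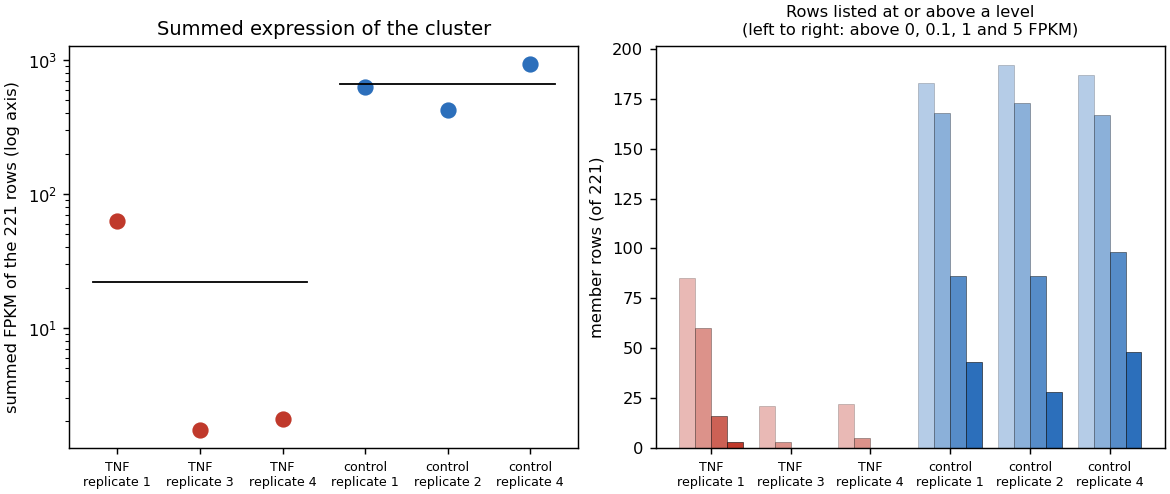
The left panel plots the summed FPKM of the 221 member rows on a log axis, 1 point per library with black lines for the group means, and the right panel plots how many rows were above 0 or reached 0.1, 1 and 5 FPKM. TNF libraries (red) sum to between 1.74 and 62.7 FPKM and control libraries (blue) to between 424 and 937 FPKM.

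Fewer members were detected in each TNF library than in any control library. Rows above 0 numbered 85, 21 and 22 in TNF replicates 1, 3 and 4, against 183, 192 and 187 in control replicates 1, 2 and 4. At 1 FPKM or more the numbers were 16, 0 and 0 in TNF libraries, against 86, 86 and 98 in control libraries. At 5 FPKM or more they were 3, 0 and 0 in TNF libraries, against 43, 28 and 48 in control libraries. Control libraries were near each other at every level but the highest. Of the 221 members, 9 were listed at 0 in every library, 161 were above 0 in all 3 control libraries and 10 were above 0 in all 3 TNF libraries. A total of 75 members were above 0 in each control library and listed at 0 in each TNF library, and 58 more were above 0 in each control library and in TNF replicate 1 alone of the TNF libraries. Of the 212 members above 0 in any library, 211 were so in a control library, which favours these patterns. The matching share of all rows was not counted, so nothing is read from these counts.

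Fewer members made up the cluster's sum in TNF libraries. The 5 highest members made up 44.7%, 60.5% and 63.5% of the cluster's sum in TNF replicates 1, 3 and 4, against 21.7%, 17.6% and 26.9% in control replicates 1, 2 and 4. The effective number of members, the inverse of the summed squared shares, was 18.2, 7.82 and 7.72 in TNF libraries, against 47.0, 60.2 and 33.7 in control libraries. The summed level moves with both measures, and its part in them was not tested. The highest member differed between TNF libraries, being Olfr1178 at 8.23 FPKM in replicate 1, Olfr1124 at 0.501 FPKM in replicate 3 and the Gm13757 and Olfr1182 row at 0.578 FPKM in replicate 4. In all 3 control libraries it was the Gm13762 and Olfr1213 row. Spearman correlations across the 221 members, which share library and depth, were 0.571 between TNF replicates 3 and 4 and 0.282 to 0.306 between each of these and TNF replicate 1. They were 0.573 to 0.690 between TNF replicate 1 and the control libraries, and 0.839 to 0.885 among control libraries. TNF replicates 3 and 4 listed 200 and 199 of the 221 members at 0, and 13 were above 0 in both. The rank correlations of these libraries thus rest mostly on tied zeros. Pearson correlation on the log2 scale was 0.330 between them, and 0.164 and 0.098 with TNF replicate 1.

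Members were then compared one by one with limma on log2(FPKM + 1), with p-values adjusted over all rows tested by the Benjamini-Hochberg method. With no filter on low values 212 members were tested, those above 0 in any library, and 115 fell in the TNF group and 0 rose (54.2% of the 212). Over all 27442 rows tested this way, 17.0% were called lower. The median log2 change was −0.69 over the 212 members and −0.08 over all rows. Of the 212, 211 entered through a control library, so a difference in this direction is built into the choice. Without TNF replicate 1 the count of lower members was 109, and it was 76 both without TNF replicate 3 and without TNF replicate 4. Of all rows tested in these fits, 5062 of 27164, 2114 of 27113 and 2214 of 27026 were called lower. Under the filter used for single genes below, at least 1 FPKM in at least 3 libraries, only 72 members were tested, 149 failed, and 71 of the 72 had all 3 control libraries at 1 FPKM or more. Of these 72 members 67 fell and 0 rose, with log2 changes from −4.90 to −1.09 over the 72, where 27.2% of all 15037 rows tested were called lower. Over all of those rows 1635 were called higher and 4083 lower, a split that median-of-ratios scaling changed to 2342 and 3189 while it left 67 members lower. Over all 15037 rows the median log2 change was −0.22, and that scaling brought it to 0.00. Leaving out a control library left 15 or 16 members in the filtered test, since 3 libraries must reach 1 FPKM, and 8 to 12 of them were called lower. Over all rows, 1609 of 13628, 2156 of 13641 and 2192 of 13632 were, without control replicates 1, 2 and 4. The same omissions without the filter left 112 to 122 members lower, where 3438 of 26721, 4284 of 26900 and 4489 of 26751 rows were.

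Every TNF value lay below every control value for 150 of the 212 members, and the reverse was found for 0. The same held for 28.8% of all rows above 0 in any library. Without TNF replicate 1 the numbers were 160 members and 36.3% of rows. The mean was lower in the TNF group for 209 members. The other 3 were Olfr996, Olfr998 and Olfr1000, and none of them exceeded 0.0959 FPKM in any library. Olfr998 was the single member above 0 in a TNF library (0.0486 FPKM in replicate 3) and in no control library.

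The member with the highest expression was the row that merges Olfr1213 with Gm13762 (chr2:88972184-88980257). It had 3.45, 0 and 0 FPKM in TNF replicates 1, 3 and 4, against 48.4, 20.3 and 112 FPKM in control replicates 1, 2 and 4. The groups did not overlap, but the control libraries spread widely, with control replicate 4 the highest and control replicate 2 the lowest. The log2 change was −4.90 ± 0.79 (SE, n = 3 each, limma adjusted p = 0.00371).

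Olfr1260 (chr2:89974697-89978981) had 2.70, 0.0570 and 0.104 FPKM in TNF libraries, against 23.7, 8.86 and 42.2 FPKM in control libraries. The order of the libraries was that of Olfr1213, and the log2 change was −3.75 ± 0.69 (SE, limma adjusted p = 0.00600). Olfr140 (chr2:90051375-90063594), near the far end of the cluster, had 0.614, 0 and 0 FPKM in TNF libraries, against 24.7, 15.1 and 34.4 FPKM in control libraries. It too had no overlap between groups, with a log2 change of −4.38 ± 0.36 (SE, limma adjusted p = 0.000476).

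Olfr1110 (chr2:87135173-87140222), whose promoter is printed above, had 1.12, 0 and 0.0246 FPKM in TNF libraries, against 19.1, 14.5 and 29.3 FPKM in control libraries. It fell by 4.03 ± 0.39 on the log2 scale (SE, limma adjusted p = 0.000741). Olfr1112 (chr2:87187960-87192645), in the same stretch, had 0.211, 0 and 0 FPKM in TNF libraries, against 18.0, 12.2 and 14.6 FPKM in control libraries. Its control libraries were close together, and with a log2 change of −3.89 ± 0.22 (SE) it had the smallest p of the members (limma adjusted p = 0.000368).

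Olfr1093 (chr2:86782538-86786719), the other printed promoter of a member that fell, had 0.953, 0.0415 and 0.0746 FPKM in TNF libraries, against 5.75, 4.07 and 9.66 FPKM in control libraries. Its log2 change was −2.46 ± 0.37 (SE, limma adjusted p = 0.00284). Olfr142 (chr2:90250195-90257566), near the end of the cluster, had 0, 0.0907 and 0.0636 FPKM in TNF libraries, against 3.55, 3.13 and 4.22 FPKM in control libraries. TNF replicate 1 listed it at 0 while the other TNF libraries did not, and the log2 change was −2.13 ± 0.17 (SE, limma adjusted p = 0.000434). Both were picked after their values were seen.

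Olfr1241 (chr2:89481268-89487089) was, like Olfr1260, above 0 in every TNF library, at 0.490, 0.275 and 0.0157 FPKM, against 14.4, 12.5 and 33.8 FPKM in control libraries. Its log2 change was −3.95 ± 0.39 (SE, limma adjusted p = 0.000779). Olfr1124 (chr2:87430323-87435469) went against the usual order of the TNF libraries, with 0, 0.501 and 0.150 FPKM, against 14.8, 6.44 and 17.5 FPKM in control libraries. TNF replicate 1 listed this member at 0, and the log2 change was −3.43 ± 0.38 (SE, limma adjusted p = 0.00106). The row that merges Olfr1182 with Gm13757 had 0.324, 0.0380 and 0.578 FPKM in TNF libraries, the last being the highest value of any member in TNF replicates 3 and 4, against 16, 4.54 and 19.8 FPKM in control libraries. Its log2 change was −3.27 ± 0.51 (SE, limma adjusted p = 0.00322).

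Over the 24 members with the highest mean, control means ran from 8.82 to 60.4 FPKM and the 24 held 58.3% of the cluster's control sum. In 22 of the 24 the groups did not overlap (28.8% of all rows above 0), and the same number fell (27.2% of all rows tested), with log2 changes over the 24 from −4.90 to −1.99. A mean over all libraries is set mostly by the control libraries here, which favours this direction, so nothing is read from these counts. The 22 include Olfr1257, Olfr1242, Olfr1193, Olfr1226, Olfr1264, Olfr1229, Olfr1196, Olfr1200, Olfr1198, the merged Olfr1249 and Olfr1251 row, Olfr1243, Olfr1262, Olfr1261 and Olfr1256. Olfr1193 shares its deposited locus with Olfr1195, so its value is uncertain. TNF replicates 3 and 4 listed 14 of the 24 at 0, and TNF replicate 1 had the highest TNF value for 22 of them. Control replicate 4 was the highest library for 22 of the 24, and control replicate 2 was the lowest control for 22.

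**Figure D2:**
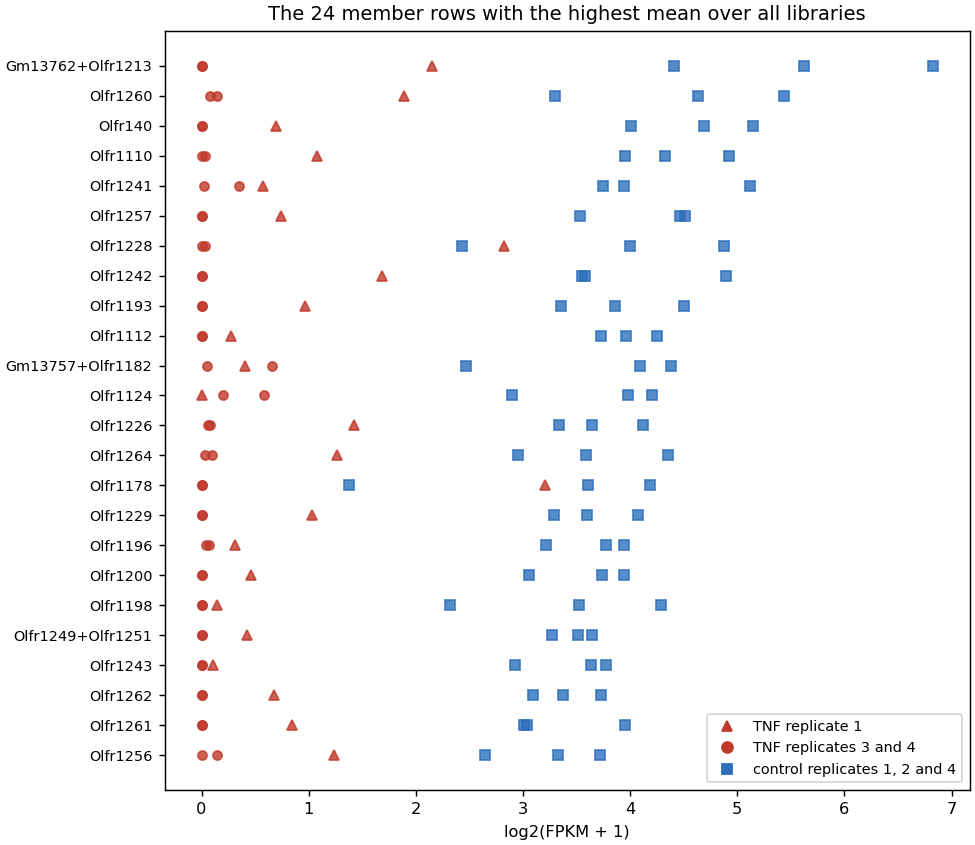
Each line is 1 of the 24 member rows with the highest mean over all libraries, and points give log2(FPKM + 1) in TNF replicate 1 (red triangles), TNF replicates 3 and 4 (red circles) and the control libraries (blue squares). The groups overlap for Olfr1228 and Olfr1178 only, through TNF replicate 1.

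Single members differed widely in how much TNF replicate 1 held of them. Over the 86 members with a control mean of at least 1 FPKM, TNF replicate 1 held a median of 3.68% of the control mean (quartiles 0.518% and 11.2%). It listed 20 of them at 0, was under 10% for 62 and above 50% for 5, with a highest value of 180% for Olfr1206. The members at 1 FPKM or more in TNF replicate 1 that also reached the lowest control value were 5 in number, Olfr1178, Olfr1199, Olfr1205, Olfr1206 and Olfr1228, named here after their values were seen.

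Olfr1178 (chr2:88387241-88400851) had 8.23, 0 and 0 FPKM in TNF replicates 1, 3 and 4, against 11.2, 1.60 and 17.2 FPKM in control replicates 1, 2 and 4. Its TNF replicate 1 value lay between those of control replicates 2 and 1, and the log2 change was −1.99 ± 1.07 (SE, limma adjusted p = 0.190). Olfr1206 (chr2:88863245-88867331) had 7.59, 0.0782 and 0.0167 FPKM in TNF libraries, against 3.43, 1.57 and 7.65 FPKM in control libraries. TNF replicate 1 was thus within 1 FPKM of the highest control, and the log2 change was −1.13 ± 0.89 (SE, limma adjusted p = 0.357). Olfr1228 (chr2:89248072-89253645) had 6.06, 0.0228 and 0 FPKM in TNF libraries, against 14.9, 4.37 and 28.4 FPKM in control libraries. It overlapped with control replicate 2 alone, at a log2 change of −2.81 ± 0.93 (SE, limma adjusted p = 0.0517).

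Olfr1199 (chr2:88755741-88760461) had 1.94, 0 and 0 FPKM in TNF libraries, against 1.70, 1.46 and 3.96 FPKM in control libraries. Its log2 change was −1.16 ± 0.49 (SE, limma adjusted p = 0.108). Olfr1205 (chr2:88829763-88832094) had 1.58, 0 and 0.0497 FPKM in TNF libraries, against 2.99, 0.729 and 4.06 FPKM in control libraries, and its log2 change was −1.23 ± 0.52 (SE, limma adjusted p = 0.108). These 5 are also the 5 tested members that were not called, which a choice by overlap with control values favours. Without TNF replicate 1, Olfr1178, Olfr1199, Olfr1206 and Olfr1228 were called lower (limma adjusted p = 0.0256, 0.01, 0.0166 and 0.00753), and Olfr1228 also without control replicate 2 (limma adjusted p = 0.0461). Over all settings with no replicate block their adjusted p ran from 0.0256 to 0.430, 0.01 to 0.493, 0.0166 to 0.709 and 0.00753 to 0.161, and that of Olfr1205 from 0.0528 to 0.472.

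Together the 5 made up 40.5% of the cluster's sum in TNF replicate 1, 5.82% in TNF replicate 3 and 3.16% in TNF replicate 4, against 5.42%, 2.30% and 6.53% in control replicates 1, 2 and 4. The 5 were picked for their values in TNF replicate 1, so a high share there is built into the choice and nothing is read from it. All 5 lie in the later part of the cluster, where most members at 1 FPKM or more in the control libraries also lay. The coding sequences of Olfr1205 and Olfr1206 are 95.5% identical, so part of the value of one may belong to the other, while the other pairs among the 5 share 59.9% to 72.0%. The windows of Olfr1199 and Olfr1205 printed above hold 4 and 1 homeodomain cores, and that of Olfr1110, which had 1.12 FPKM in TNF replicate 1, holds 1. TNF replicate 1 also held 23.4% of the control mean of mature neuron marker FPKM, against 0.932% and 0.754% in TNF replicates 3 and 4, and the part of this in the 5 values was not tested.

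**Figure D3:**
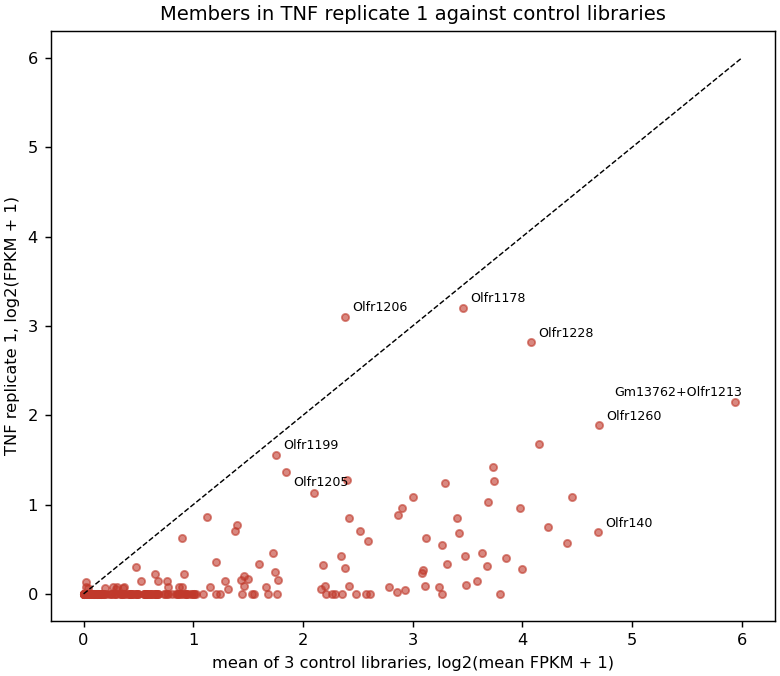
Each point is a member, with log2(mean FPKM + 1) over the 3 control libraries on the x axis and log2(FPKM + 1) in TNF replicate 1 on the y axis, and the dashed line marks equal values. Olfr1206 lies above the line and Olfr1178, Olfr1199 and Olfr1205 just below it, while the highest control member, the merged Gm13762 and Olfr1213 row, reaches 3.45 FPKM in TNF replicate 1.

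Expression was uneven along the cluster. In 500-kb steps from 85 Mb the control mean per member was 0.327, 0.474, 0.345, 2.14, 3.98, 0.516, 2.44, 7.42, 4.97, 6.65 and 5.23 FPKM. The stretch from 88.5 to 89.0 Mb, with 21 members, held 23.5% of the control sum and 33.5% of that of TNF replicate 1. TNF replicate 1 held between 1.55% (86.0 to 86.5 Mb) and 24.4% (88.0 to 88.5 Mb) of the control mean of a step. The step from 88.0 to 88.5 Mb was carried by Olfr1178, without which it stood at 8.42%. In the step from 88.5 to 89.0 Mb TNF replicate 1 held 13.5% of the control mean, and 18.4% without the merged Gm13762 and Olfr1213 row. The control mean per member of that step was 4.78 FPKM without this row. In TNF replicate 1 all but 1 of the 16 members at 1 FPKM or more started beyond 88.0 Mb. The exception was Olfr1110. The 500-kb steps from 88.0 Mb on also held most members at this level in control libraries. They held 7, 18, 13, 13 and 7 of 86 in control replicate 1, and 6, 13, 14, 13 and 7 of 86 in control replicate 2. In control replicate 4 they held 8, 19, 17, 15 and 7 of 98. Nothing is read from the count in TNF replicate 1.

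**Figure D4:**
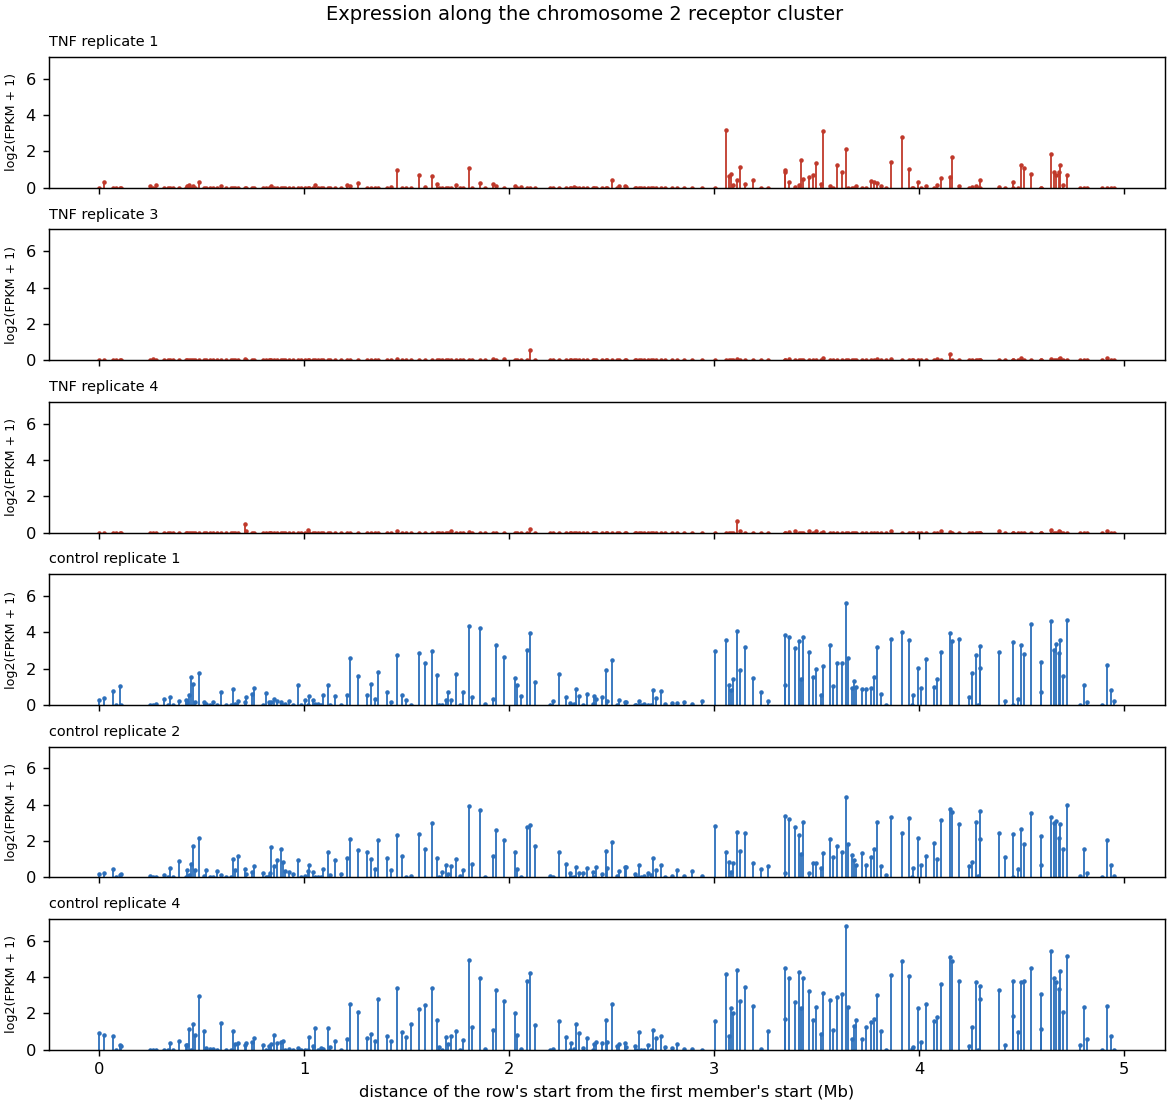
Vertical lines give log2(FPKM + 1) of each of the 221 members against the distance of its start from that of the first member, in Mb, with a panel per library. Peaks stand at like places in the 3 control libraries, TNF replicate 1 keeps lower ones mostly beyond 3 Mb, and TNF replicates 3 and 4 hold no member at 1 FPKM.

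Levels also differed with the length of the deposited locus. A locus of at most 1100 bases, about that of the coding exon, was listed for 129 members, and their control means had a median of 0.237 FPKM. The other 92 members had longer loci, which extend beyond the coding exon, and a median control mean of 4.26 FPKM. Among the short loci 0 members reached 1 FPKM in a TNF library and 7 reached it in all 3 control libraries. Among the long loci the numbers were 16 and 64. The sources used here do not say how the transcript models were made, and FPKM divides by the length of the model, so the part of the models in this difference was not tested.

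Other receptors were set beside the cluster. Class II receptors elsewhere summed to 347, 286 and 297 FPKM in TNF replicates 1, 3 and 4, against 1683, 1475 and 2434 FPKM in control replicates 1, 2 and 4. Most of their TNF sum in replicates 3 and 4 was a single row that merges Olfr56 with the interferon-inducible gene Ifi47, at 118, 269 and 285 FPKM in TNF libraries, against 10.2, 31.5 and 14.7 FPKM in control libraries. Without 4 such rows that name a receptor together with a gene of another kind, left out after their values were seen, the class II receptors elsewhere stood at 12.3%, 0.783% and 0.493% of their control mean in the TNF libraries. The cluster stood at 9.44%, 0.261% and 0.316% of its own. Class I receptors of chromosome 7 summed to 1.56, 0.491 and 0.462 FPKM in TNF libraries, against 27.5, 39.9 and 52.1 FPKM in control libraries, or 3.92%, 1.23% and 1.16% of the control mean.

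The cluster's share of all odorant receptor FPKM was 15.2%, 0.603% and 0.700% in TNF libraries, against 26.9%, 21.9% and 27.4% in control libraries. Without the 4 mixed rows it was 21.5%, 10.5% and 18.1% in TNF libraries, against 27.1%, 22.3% and 27.7% in control libraries. The groups did not overlap in either form, although TNF replicate 1 came within 1 percentage point of control replicate 2 without the mixed rows. The cluster's own merged rows were kept in both forms. Members summed to 1.74 and 2.1 FPKM in TNF replicates 3 and 4, so the shares of those libraries rest on few fragments. In the unfiltered test, 403 of 727 class II rows elsewhere (55.4%) and 23 of 113 class I rows (20.4%) were called lower. Among members 115 of 212 were (54.2%), and over all rows tested 17.0%, which the class I share was near. Whether the classes differed in their change was not tested.

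Inside the same interval the receptor pseudogenes and the remaining genes were set beside the cluster. The 47 pseudogene rows summed to 3.20, 0.0572 and 0 FPKM in TNF libraries, against 30.4, 23.4 and 57.6 FPKM in control libraries. In the unfiltered test 10 of 29 pseudogene rows (34.5%) were called lower, against 17.0% of all rows. The 43 other rows of the interval summed to 43.3, 59.4 and 65.3 FPKM in TNF libraries, against 19.4, 17.5 and 10.6 FPKM in control libraries. Of these 43 rows 17 entered the unfiltered test, where 2 rose and 1 fell, Gm13722, a predicted gene at 0.202, 0.320 and 0.333 FPKM in TNF libraries, against 0.923, 0.652 and 0.623 FPKM in control libraries (log2 change −0.43 ± 0.11 SE, limma adjusted p = 0.0408 with no filter). The rows that rose were also the 2 that passed the filter. The row 4833423E24Rik had 21.8, 29.3 and 33.0 FPKM in TNF libraries, against 7.00, 3.70 and 2.90 FPKM in control libraries (log2 change 2.44 ± 0.32 SE, limma adjusted p = 0.00173). Tnks1bp1, which encodes a tankyrase-binding protein, had 21, 25.5 and 25.2 FPKM in TNF libraries, against 8.26, 11.8 and 4.41 FPKM in control libraries (log2 change 1.53 ± 0.33 SE, limma adjusted p = 0.0111).

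Set against the summed mature neuron markers of the same library, the cluster's expression was also lower in TNF libraries, but this depended on the markers. The cluster's summed FPKM per summed FPKM of the 16 mature neuron markers was 0.0502, 0.0350 and 0.0523 in TNF replicates 1, 3 and 4, against 0.151, 0.107 and 0.119 in control replicates 1, 2 and 4. The groups did not overlap, and TNF replicate 1 lay within the other TNF libraries here. The log2 ratio of the group means was −1.46. Per summed FPKM of immature neuron markers, the ratios were 0.131, 0.00595 and 0.00745 in TNF libraries, against 0.0949, 0.0891 and 0.0931 in control libraries, so that TNF replicate 1 lay above every control library and the other TNF libraries below. The log2 ratio of these group means was −0.94, and −3.79 without TNF replicate 1. The immature marker sum was 6.67%, 4.08% and 3.94% of its control mean in TNF libraries, and part of it comes from Stmn1 and Dpysl3, at 116 to 258 and 110 to 153 FPKM in TNF libraries. At these levels of the members, near the value of 1 fragment in TNF replicates 3 and 4, the ratios of those libraries rest on few fragments.

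Genes that carry the receptor to the cilia and relay its signal were lower as well. Of 24 tested rows of the transport and signalling list 19 fell and 0 rose, where 27.2% of all rows tested were called lower. Their median log2 change was −2.88, against −0.22 over all rows. Rtp1 had 17.1, 0.242 and 0.303 FPKM in TNF libraries, against 113, 107 and 196 FPKM in control libraries (log2 change −5.45 ± 1.02 SE, limma adjusted p = 0.00654). Rtp2 had 21.4, 0.226 and 0.516 FPKM in TNF libraries, against 156, 133 and 216 FPKM in control libraries (log2 change −5.58 ± 1.06 SE, limma adjusted p = 0.00703). Both were highest in TNF replicate 1 of the TNF libraries, as the summed members were.

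Gnal, the gene of the Golf alpha subunit, had 35.1, 11 and 10.7 FPKM in TNF libraries, against 133, 125 and 169 FPKM in control libraries (log2 change −3.05 ± 0.44 SE, limma adjusted p = 0.00255). Ric8b, which assists the folding of that subunit, fell by 3.12 ± 0.57 (SE, limma adjusted p = 0.00583), and Gnb1, a G protein beta subunit of many cell types, by 2.28 ± 0.25 (SE, limma adjusted p = 0.00104). Adcy3, the olfactory adenylyl cyclase, had 37.6, 13.6 and 9.42 FPKM in TNF libraries, against 41.5, 58.1 and 122 FPKM in control libraries (log2 change −1.91 ± 0.57 SE, limma adjusted p = 0.0387). TNF replicate 1 was close to control replicate 1, and the call of Adcy3 was lost under 7 of 12 settings with no replicate block, among them the omission of any library but TNF replicate 1, its adjusted p running from 0.00778 to 0.120. The phosphodiesterase gene Pde1c, Arrb2 and Ckmt1 had log2 changes of −2.66, −2.2 and −0.95 and fell as well. The tested rows that were not called were Reep1, Gnas, Slc24a4, Slc12a2 and Adrbk2. Of 36 non-odorant chemoreceptor genes of the nose 13 passed the filter, 12 of them with all 3 control libraries at 1 FPKM or more, so a fall is in part built into that choice. Of the 13, 9 fell and 0 rose, where 27.2% of all rows tested were called lower, and with no filter 10 of 28 fell, where 17.0% of all rows did. The 9 comprise Taar6, Taar7a, Taar7b and Taar7d, trace amine receptors of olfactory neurons, a merged row of Trpc2, and Ms4a1, Ms4a4b, Ms4a4c and Ms4a7, which immune cells also express.

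Genes named in receptor choice did not all move one way. Of the 27 on the list, all tested, 10 fell, 5 rose and 12 were not called, with a median log2 change of −0.26. Over all 15037 rows tested, 27.2% were called lower and 1635 rows higher, with a median of −0.22. Lhx2, the homeodomain factor of the receptor enhancers, had 16.5, 0.314 and 0.529 FPKM in TNF libraries, against 165, 141 and 330 FPKM in control libraries (log2 change −5.92 ± 0.99 SE, limma adjusted p = 0.00421). Ebf1 had 5.56, 6.44 and 8.72 FPKM in TNF libraries, against 122, 95.9 and 198 FPKM in control libraries (log2 change −4.10 ± 0.30 SE, limma adjusted p = 0.000397). Unlike Lhx2 and the receptors, Ebf1 was not raised in TNF replicate 1 over the other TNF libraries, and neither was Ebf3, at 3.56, 3.31 and 4.61 FPKM in TNF libraries, against 94.2, 56.2 and 107 FPKM in control libraries. Ebf2, Ebf4, Emx2 and Atf5, the last a factor of the unfolded protein response that follows receptor choice, fell, with log2 changes of −6.04, −4.37, −3.59 and −3.60 (limma adjusted p = 0.00215, 0.00109, 0.000836 and 0.000988).

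Ldb1, the partner of Lhx2 at the enhancers and a gene of many cell types, had 32.1, 20.9 and 23.1 FPKM in TNF libraries, against 43.6, 38.8 and 58.9 FPKM in control libraries (log2 change −0.87 ± 0.23 SE, limma adjusted p = 0.0264). Its call was lost under 5 of 12 such settings, including median-of-ratios scaling (limma adjusted p = 0.0760) and the omission of TNF replicate 3, TNF replicate 4, control replicate 1 or control replicate 4, with adjusted p from 0.01 to 0.0978. Kdm1a, the lysine demethylase of receptor activation, had 64.6, 67.7 and 57.6 FPKM in TNF libraries, against 83.5, 86.7 and 130 FPKM in control libraries, and did not pass the test (log2 change −0.63 ± 0.21 SE, limma adjusted p = 0.0537). Ddit3 and Dnmt3a complete the list of those that fell, with log2 changes of −1.84 and −1.17 (limma adjusted p = 0.00296 and 0.0157), and without control replicate 1 or 4 Dnmt3a was not called (limma adjusted p = 0.0765 and 0.0549, range over settings 0.0131 to 0.0765). Lmna, the lamin A gene, had 372, 502 and 498 FPKM in TNF libraries, against 105, 76.5 and 77.6 FPKM in control libraries (log2 change 2.39 ± 0.21 SE, limma adjusted p = 0.000561). Eif2ak3, Ehmt2 and Rest also rose, with log2 changes of 0.61, 0.65 and 1.18 (limma adjusted p = 0.0465, 0.0277 and 0.0195). The omission of a library ended the call of Eif2ak3 and Ehmt2 in 5 cases, for each library other than TNF replicate 1 (that of Eif2ak3 also with no filter), and that of Rest in 3, for TNF replicates 3 and 4 and control replicate 1. Over settings the adjusted p ran from 0.0149 to 0.175, 0.00808 to 0.0862 and 0.0101 to 0.0691 for these 3 genes.

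**Figure D5:**
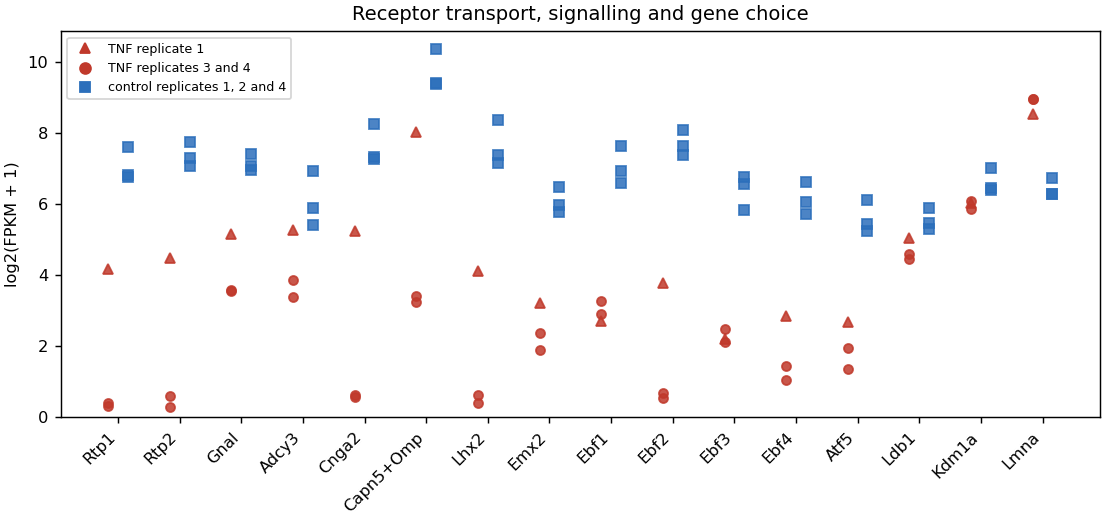
Points give log2(FPKM + 1) of receptor transport, signalling and choice genes, with TNF replicate 1 as red triangles, TNF replicates 3 and 4 as red circles and control libraries as blue squares. Rtp1, Rtp2, Lhx2 and Ebf2 sit near 0 in TNF replicates 3 and 4, at most 0.609 FPKM, and Lmna is the gene higher in the TNF libraries.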

How the data were processed

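The build mm10 and the tools TopHat2 2.1.1, Cuffdiff 2.2.1, FastQC 0.10.1 and bcl2fastq are named in the submitters' processing notes. The sources used here do not give their settings, the strand mode or the handling of multiply mapped reads and amplification copies. Per the labels' protocols, 5 ng of total RNA with a RIN above 7 was amplified with a SMARTer v4 kit, and Nextera libraries were made. The authors deposited a table of FPKM per library (its title speaks of raw counts, but 99.98% of values above 0 were not whole), so no count model was used.

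From these, limma 3.58.1 (R 4.3.3) was fitted with an intensity trend to log2(FPKM + 1), a pseudocount of 1, with group as the only term, on rows that reached 1 FPKM in 3 or more of 6 libraries, at an adjusted p below 0.05. This scale understates the change of low genes. Deposited locus starts count from 0, and 1 was added. Members and gene lists were chosen with earlier results of these data known. Named were the 24 members of highest mean, the member of smallest p, up to 8 genes per pathway list by smallest p and 8 fixed genes, and interval neighbours. The marker lists are given by their sums and counts in place of the genes the rule took from them, and genes correlated with the cluster over 6 libraries are left out because the libraries form separate groups. Olfr142, Olfr1093, the tested members that were not called and the other called genes of the choice list were added after their values were seen. Symbols were matched to RefSeq (GRCm38.p6) and GENCODE M21, and coding identity came from edlib 1.3.9 alignments. A few genes that the rule took are not reported here. The procedure was tested on simulated data. Alternatives were another pseudocount, filters, scalings, thresholds, a robust variance, a replicate block and the omission of each library.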

Additional observations from a re-analysis of the deposited data

How the results depend on the processing

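Under the alternatives tried, 0 members were called higher in the TNF group. Counts of rows called over the whole table were 5718 as reported, 2990 with the replicate block, 3291 at an adjusted p below 0.01, and 2475 to 6940 with a library left out. Members called lower numbered 67 as reported, 115 with no filter, and 8 to 71 with a library left out, the low end because only 15 or 16 members then pass the filter. Rows called lower over the whole table numbered 4083, 4665 and 1609 to 4924 under the same settings. With no filter, leaving out a library (added after seeing the data) gave 76 to 122 members, where 2114 to 5062 of all rows were called lower. Other scalings, another pseudocount, a filter on the mean of 0.5 FPKM, a robust variance and an adjusted p below 0.01 gave 59 to 78. Of all rows, 2867 to 4295 were called lower under these, the threshold of 0.01 aside.

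With the replicate number as a block 68 members were called lower, as were 2246 of all 15037 rows tested. The groups share the numbers 1 and 4 only, and deviations from the group means correlated at −0.0638 and −0.0874 between same-numbered libraries. Between libraries of different numbers the correlations ran from −0.146 to 0.179. With 3 libraries per group these values cannot tell whether the numbers pair the samples, so pairing is unknown. Among single genes, 8 were not called under the block, Adcy3, Ckmt1, Ldb1, Eif2ak3, Ehmt2 and Rest among them, and Olfr1228 was called (limma adjusted p = 0.0254).

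The log2 ratio of summed FPKM, −4.90, ran from −8.44 to −4.36 with a library left out. The TNF minus control difference in members detected was −84.7 at 1 FPKM, −147 at 0.1 FPKM, −145 above 0 and −38.7 at 5 FPKM, and ran from −90.0 to −80.7 with a library left out. The difference in the cluster's share of receptor FPKM was −19.9 percentage points, −16.2 without the 5 highest members, −11.3 as a share of receptor rows at 1 FPKM, −9.0 without mixed rows (chosen after seeing the data) and −24.7 to −17.4 with a library left out. The log2 ratio per mature marker FPKM was −1.46, −0.94 per immature marker, −1.76 per FPKM of the row that merges Omp with Capn5, and −1.56 to −1.30 per mature marker with a library left out. Per immature marker, leaving out a library (added after seeing the data) gave −3.79 to −0.41, the low end without TNF replicate 1. Among the neighbours 2 rows were called, and 1 at an adjusted p below 0.01. The causes of these shifts were not tested.

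Of 690 values of 57 single genes under alternatives, 648 kept direction and side of the threshold, 36 lost the call, 6 gained it and 0 reversed. Low levels limit what can be said of members under 0.1 FPKM, and the depth of the libraries is unknown.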
